A study of Mus musculus with 9 samples.

Results

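Il4, Csf1, Cxcl10, Saa3, Spp1 and Plat encode 6 secreted proteins whose RNA was higher in MIN6 cells overexpressing Nr4a1 than in control cells, and lower again when EGCG was added. They were picked by name from the 52408 genes of the deposited table because of these differences, so the rise and the fall chose them and are given below as a description without a test. RNA-seq was carried out on 9 libraries of MIN6, a mouse pancreatic beta cell line derived from an insulinoma. The control group was 3 libraries of untransfected cells, the overexpression group was 3 libraries of cells overexpressing Nr4a1, and the EGCG group was 3 libraries of cells given EGCG on top of Nr4a1 overexpression. All 9 libraries carried the same batch number. EGCG is epigallocatechin gallate, the main catechin of green tea. No label states its dose or time, the way the cells were transfected or the number of clones. The control cells received no transfection and no EGCG vehicle is described, so effects of transfection and of Nr4a1 cannot be told apart.

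NR4A1 is an orphan nuclear receptor and an immediate early gene product that can bind DNA as a monomer at the element called NBRE. The 6 proteins act outside the cell in different ways. Interleukin 4 (Il4) is the signature cytokine of type 2 helper T cells and of mast cells and basophils, and signals through JAK kinases and STAT6. Colony stimulating factor 1 (Csf1) is the growth and survival factor of macrophages. Cxcl10 is a chemokine induced by interferons that draws activated T cells through the receptor CXCR3, and islets make it in autoimmune diabetes. Saa3 is an acute-phase serum amyloid A protein made outside the liver. Osteopontin (Spp1) is a phosphorylated matrix protein bound by integrins and CD44, and tissue plasminogen activator (Plat) is the serine protease that turns plasminogen into plasmin.

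Values are TPM, the transcript abundance measure that corrects for transcript length and scales each library to the same sum, and were summed over the transcripts of a gene. TPM keeps no depth, so the counting error behind each value is unknown. Nr4a1 itself stood at 0.63, 0.78 and 0.76 TPM in the control libraries, at 128.3, 122.52 and 165.18 TPM with overexpression, and at 46.25, 60.91 and 54.46 TPM in the EGCG group. The groups followed their labels, and the EGCG group held 38.9% of the Nr4a1 RNA of the overexpression group, so EGCG and a lower Nr4a1 level cannot be told apart. Of 12 beta cell markers, 11 reached 1 TPM in 3 or more libraries, with summed levels of 4979 to 5068 TPM in control, 6751 to 7050 TPM with overexpression and 4901 to 5245 TPM with EGCG. That sum, too, was highest with overexpression. Ins1 (785 to 2030 TPM between the group means) made up most of the gain. G6pc2, Pdx1, Pcsk1, Slc30a8, Nkx6-1 and Iapp also rose, by 0.88, 0.72, 0.53, 0.52, 0.37 and 0.30 on the log2(TPM + 1) scale (limma adjusted p at most 0.0152). Mafa, Chga and Chgb fell by 0.68, 0.37 and 0.32 on that scale (limma adjusted p = 0.000217, 0.00112 and 0.0138). The part of these markers in the members' levels was not tested. Slc2a2, the glucose transporter of mouse beta cells, was low, at 0.82 to 1.42 TPM in control. The labels do not state that the triplicates came from separate cultures, and p-values therefore measure only the spread between these libraries.

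The 250 bases upstream of the annotated start of 5 of the 6 genes are shown because Nr4a1 is a DNA-binding receptor. That the 6 RNAs moved together was fixed by the way they were chosen. They are taken from the RefSeq promoter table of build GRCm38.p6, read 5′ to 3′ on the gene's strand. Plat was not matched in that table. Capitals mark matches, on either strand, to 8 motifs that were searched.
Il4, chr11:53618666-53618915, minus strand: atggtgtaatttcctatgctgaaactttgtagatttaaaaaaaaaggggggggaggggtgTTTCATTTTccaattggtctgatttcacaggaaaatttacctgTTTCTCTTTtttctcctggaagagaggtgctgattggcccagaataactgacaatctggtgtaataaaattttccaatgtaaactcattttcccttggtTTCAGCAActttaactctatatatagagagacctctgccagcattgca
Csf1, chr3:107760470-107760719, minus strand: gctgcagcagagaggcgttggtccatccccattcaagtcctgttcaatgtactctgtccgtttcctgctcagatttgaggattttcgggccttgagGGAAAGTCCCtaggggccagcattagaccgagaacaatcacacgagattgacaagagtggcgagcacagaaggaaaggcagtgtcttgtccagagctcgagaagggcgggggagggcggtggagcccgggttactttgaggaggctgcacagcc
Cxcl10, chr5:92348890-92349139, minus strand: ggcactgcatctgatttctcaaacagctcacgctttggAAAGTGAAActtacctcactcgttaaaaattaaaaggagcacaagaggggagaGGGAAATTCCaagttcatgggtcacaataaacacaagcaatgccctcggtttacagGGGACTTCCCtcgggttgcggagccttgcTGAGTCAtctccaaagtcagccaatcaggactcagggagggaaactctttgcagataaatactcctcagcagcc
Saa3, chr7:46715677-46715926, minus strand: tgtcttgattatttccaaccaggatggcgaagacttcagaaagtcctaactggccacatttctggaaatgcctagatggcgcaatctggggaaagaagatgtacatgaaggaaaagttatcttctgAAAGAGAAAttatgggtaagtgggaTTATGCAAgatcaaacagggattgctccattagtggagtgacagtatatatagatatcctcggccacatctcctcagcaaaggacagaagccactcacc
Spp1, chr5:104434861-104435110, plus strand: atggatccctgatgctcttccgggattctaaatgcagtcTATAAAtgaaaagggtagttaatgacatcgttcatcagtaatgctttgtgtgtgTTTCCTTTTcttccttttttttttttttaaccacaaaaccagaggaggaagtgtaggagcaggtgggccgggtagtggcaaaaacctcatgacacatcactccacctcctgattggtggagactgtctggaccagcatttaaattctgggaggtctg
The motifs were NBRE (AAAGGTCA), the NF-kB consensus, AP-1 (TGANTCA), the cAMP response element CRE (TGACGTCA), C/EBP (TTGCNNAA), the interferon-stimulated response element ISRE core (AAANNGAAA), the TATA box (TATAAA) and the hypoxia response element HRE core (ACGTG). No pair of the capital runs overlaps.

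Cxcl10 held the most matches, an ISRE core at -212 to -204, NF-kB matches at -159 to -150 and at -103 to -94, and an AP-1 match at -74 to -68, counted in bases from the start. Csf1 held an NF-kB match at -154 to -145. Il4 held ISRE cores at -190 to -182 and -147 to -139 and a C/EBP match at -48 to -41. Saa3 held an ISRE core at -124 to -116 and a C/EBP match at -99 to -92. Spp1 held the letters TATAAA at -211 to -206 and an ISRE core at -157 to -149. For the TATA box only these exact letters were searched, at any distance from the start, so a match need not be a working TATA box. The runs of alternating t and a in the Il4 and Saa3 windows were not matched by these letters. With a further window each for Il4 and Spp1, 7 windows were searched. The NF-kB consensus was in 2 of these 7 and in 3.90% of the 32851 windows of the same length in the table. The ISRE core was in 5 of 7 against 9.37% of all windows, C/EBP in 3 of 7 against 9.56%, AP-1 in 1 of 7 against 6.75% and the TATA box in 1 of 7 against 12.37%. NBRE, CRE and the HRE core were in 0 of 7, against 1.34%, 1.55% and 16.57%. A match is a description of letters, and the windows of a gene are not independent of each other.

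**Figure D1:**
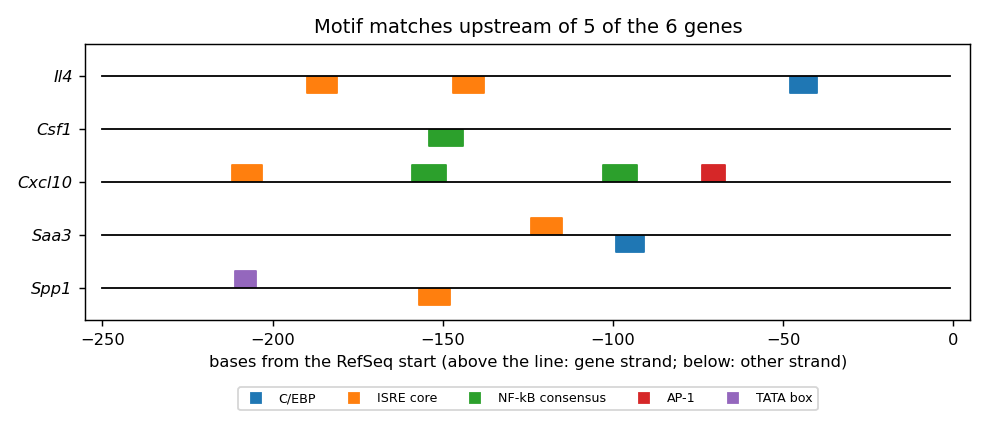
Motif matches in the 250 bases upstream of the RefSeq start of 5 genes (Il4, Csf1, Cxcl10, Saa3, Spp1). The horizontal axis is the distance from the start in bases. Coloured boxes above a line are matches on the gene's strand and boxes below it are matches on the other strand; Cxcl10 holds 2 NF-kB matches and Csf1 holds 1.

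Il4 had the widest range of the 6 genes as a ratio. Its TPM was 0.48, 0.38 and 0.93 in the control libraries, 15.62, 16.15 and 13.22 with overexpression, and 0.80, 1.16 and 0.81 with EGCG. The overexpression libraries lay far above all others, and the EGCG libraries overlapped the control libraries. Mean TPM (± SD, n = 3) was 0.597 ± 0.293 in control, 15.0 ± 1.56 with overexpression and 0.923 ± 0.205 with EGCG, a ratio of 25.1-fold and then 16.2-fold back. On the log2(TPM + 1) scale, which understates changes of low genes, the differences were 3.34 (SE 0.136) and -3.06. Of the TPM gained with overexpression, 2.27% was left in the EGCG group. The protein-coding transcript Il4-201, of 140 residues, made up 88.1% of the gene in control, 91.3% with overexpression and 88.0% in the EGCG group. Il4-202, a processed transcript without a coding sequence, made up 11.9%, 7.53% and 12.0%.

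Csf1 was the most even of the 6 genes across the overexpression libraries. Its TPM was 10.67, 9.90 and 9.20 in control, 27.47, 26.91 and 28.14 with overexpression, and 7.88, 9.78 and 7.48 with EGCG. Overexpression libraries lay above both other groups, whose values overlapped. The means of 9.92 ± 0.735, 27.5 ± 0.616 and 8.38 ± 1.23 TPM (SD, n = 3) gave ratios of 2.77-fold over control and 3.28-fold over the EGCG group, or 1.39 (SE 0.0901) and -1.61 on the log2(TPM + 1) scale. The EGCG mean was below the control mean, so none of the rise was left.

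Csf1 RNA exists in forms for a long precursor, which is released as a soluble or proteoglycan cytokine, and for a short precursor that stays in the cell membrane. Csf1-201 and Csf1-203 have the same coding sequence, for 552 residues, and Csf1-202 codes for 257 residues and lacks 885 coding bases of Csf1-201. The 552-residue transcripts together had 4.45 ± 0.948 TPM (SD, n = 3) in control, 15.6 ± 0.940 with Nr4a1 overexpression and 4.23 ± 0.449 after EGCG, which was 44.5%, 56.8% and 51.1% of the gene. The 257-residue transcript had 2.47 ± 0.506, 8.36 ± 0.466 and 2.49 ± 1.21 TPM, or 25.3%, 30.4% and 28.9%. Both forms were higher in each overexpression library than in each of the other 6. Csf1-207, an incomplete transcript model of 836 bases that starts within the gene, went the other way, with 1.89, 1.85 and 1.59 TPM in control, 0.83, 0 and 0 with overexpression, and 0.60, 0.59 and 0.47 with EGCG. Csf1-203 had 1.73, 1.58 and 1.20 TPM in control and 2.02, 2.16 and 3.34 with overexpression, and at 0.48, 0.51 and 0.42 with EGCG it was below control. Csf1-205 and the retained-intron transcript Csf1-206 each made up between 3.90% and 5.38% of the gene in every group mean. Transcript estimates of the same gene share reads, so these splits are less certain than the gene sums.

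**Figure D2:**
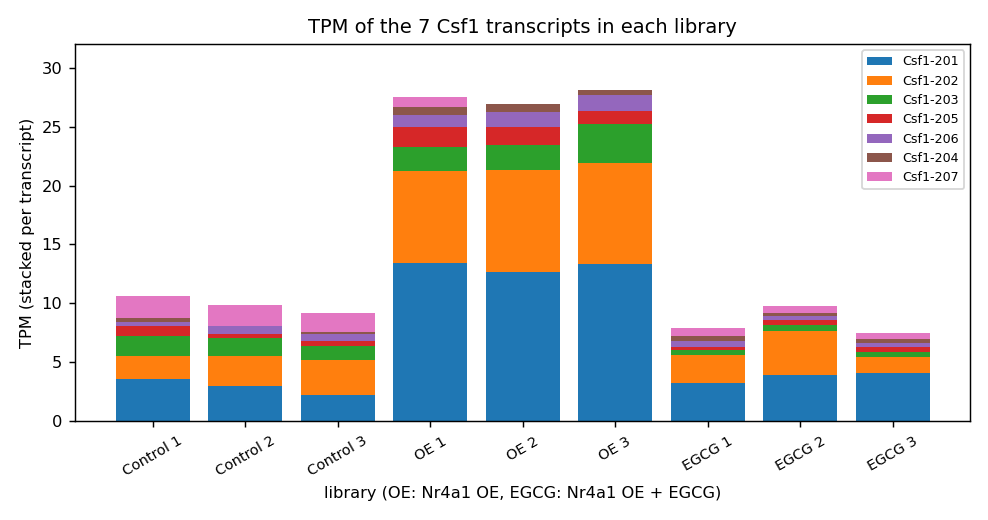
TPM of each of the 7 Csf1 transcripts, stacked, in each of the 9 libraries (vertical axis TPM, horizontal axis library; OE is Nr4a1 overexpression, EGCG is overexpression with EGCG). Csf1-201 and Csf1-202 make up most of the taller bars with overexpression, and Csf1-207 is at 0 in 2 of those 3 libraries.

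Cxcl10 was the lowest of the 6 genes with overexpression. Its TPM was 1.19, 1.23 and 0.94 in control, 3.53, 3.89 and 4.23 with overexpression, and 0.63, 0.77 and 0.82 with EGCG. The 3 groups did not overlap, with EGCG lowest. Means were 1.12 ± 0.157, 3.88 ± 0.350 and 0.740 ± 0.0985 TPM (SD, n = 3), a ratio of 3.47-fold over control and 5.25-fold over EGCG, or 1.20 (SE 0.0859) and -1.49 on the log2(TPM + 1) scale. Cxcl10-201, which codes for 98 residues, made up 83.7%, 86.1% and 92.7% of the gene in control, overexpression and EGCG, and the retained-intron transcript Cxcl10-203 made up 11.5%, 10.4% and 6.75%. Cxcl10-203 was at 0.41, 0 and 0 TPM in control and at 0, 0.35 and 0.94 with overexpression, so its control share came from replicate 1 alone. Cxcl10-201 by itself, at 0.66, 1.23 and 0.90 TPM in control and 0.60, 0.77 and 0.68 with EGCG, overlapped between these 2 groups. Cxcl10 lies within the span of Art3 on the opposite strand. Art3 was at 0.49, 0.29 and 0.29 TPM in the 3 groups, and the strand setting of the authors' counting was not stated in the labels or notes.

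Saa3 had the widest spread among overexpression libraries. Its TPM was 19.47, 17.51 and 24.31 in control, 85.23, 74.57 and 55.37 with overexpression, and 25.58, 28.38 and 28.19 with EGCG. The 3 groups did not overlap, and overexpression replicate 3 was the lowest of its group. Means were 20.4 ± 3.50, 71.7 ± 15.1 and 27.4 ± 1.56 TPM (SD, n = 3), a ratio of 3.51-fold over control and 2.62-fold over EGCG, or 1.75 (SE 0.157) and -1.34 on the log2(TPM + 1) scale. Of the rise, 13.6% was left with EGCG. Saa3-201, for 122 residues, made up 98.0% to 99.6% of the gene in the group means.

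Spp1 had a level like that of Saa3, with closer replicates. Its TPM was 22.99, 20.33 and 21.67 in control, 73.44, 69.24 and 71.37 with overexpression, and 29.14, 29.36 and 29.42 with EGCG. The groups did not overlap, and EGCG libraries lay between control and overexpression. Means were 21.7 ± 1.33, 71.35 ± 2.10 and 29.3 ± 0.147 TPM (SD, n = 3), a ratio of 3.29-fold over control and 2.43-fold over EGCG, or 1.68 (SE 0.0535) and -1.25 on the log2(TPM + 1) scale. Of the rise, 15.4% was left, the largest share of the 6 genes. Spp1-201, for 294 residues, made up 92.9%, 94.2% and 91.9% of the gene, and Spp1-205, with the same coding sequence, made up 5.57%, 4.10% and 5.33%. An unverified gene model on the same strand, Gm42793, overlaps Spp1 and was at 0.107, 0.207 and 0.267 TPM.

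Plat was second to Il4 in the rise as a ratio, and below Saa3, Spp1 and Csf1 in TPM gained. Its TPM was 3.64, 4.15 and 3.63 in control, 20.93, 21.51 and 19.62 with overexpression, and 4.44, 5.85 and 4.20 with EGCG. The EGCG libraries lay just above the control libraries, and both lay well below overexpression. Means were 3.81 ± 0.297, 20.7 ± 0.968 and 4.83 ± 0.891 TPM (SD, n = 3), a ratio of 5.43-fold over control and 4.28-fold over EGCG, or 2.17 (SE 0.101) and -1.91 on the log2(TPM + 1) scale. Of the rise, 6.06% was left. Plat-201, for 559 residues, made up 92.2%, 96.7% and 94.9% of the gene.

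**Figure D3:**
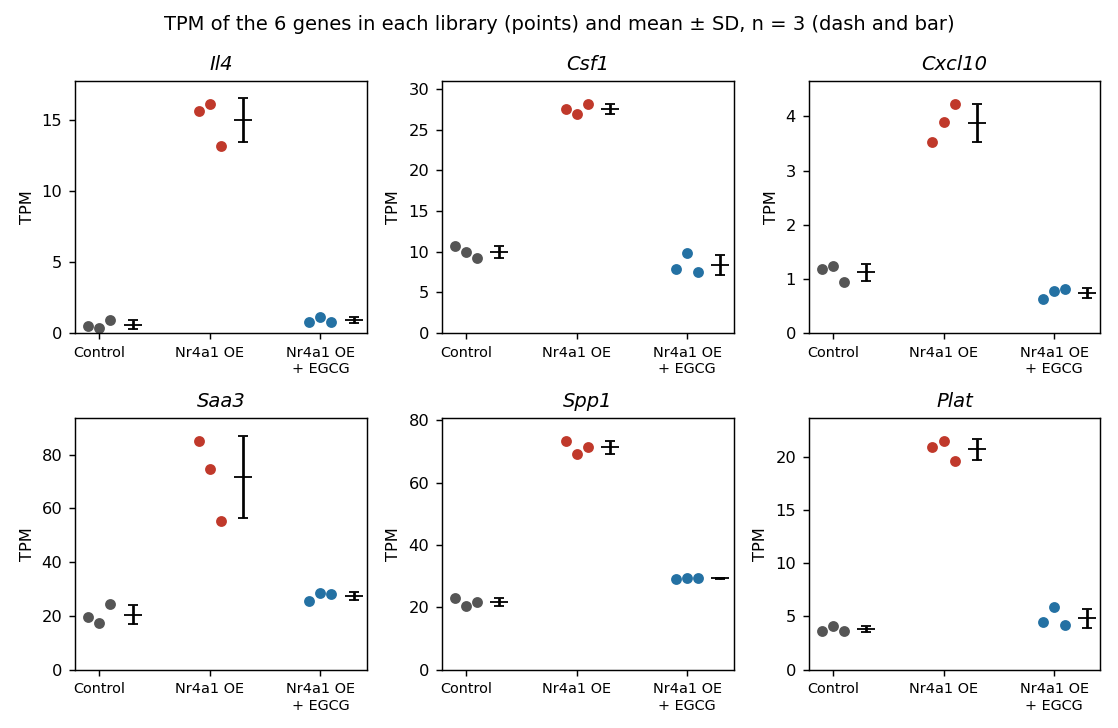
TPM of the 6 genes in each library (points) with the mean and SD of each group (dash and bar, n = 3); each panel is 1 gene with its own linear vertical axis starting at 0. In every panel the 3 overexpression libraries lie above all 6 other libraries.

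In all 6 genes the overexpression libraries overlapped neither the control nor the EGCG libraries. Among the 11950 tested genes, those that reached 1 TPM in 3 or more libraries, groups did not overlap for 65.0% between overexpression and control and for 64.6% between EGCG and overexpression. With limma on log2(TPM + 1) and a Benjamini-Hochberg adjusted p under 0.05, 59.5% of these genes were called between overexpression and control (38.2% higher), and 28.5% (3408 genes) were called higher with overexpression and then lower with EGCG. Ranked among these 3408 genes by the log2 rise, Il4 stood at 4, Plat at 16, Saa3 at 24, Spp1 at 26, Csf1 at 63 and Cxcl10 at 129. The members were picked from that class, so nothing is read from these shares. These are bulk RNA values, in which fewer cells of a type and less RNA per cell cannot be told apart.

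The selection did not fix whether the EGCG group ended above or below untransfected cells, and that difference was tested. Spp1 was higher in the EGCG group and Cxcl10 was lower, so 2 of the 6 genes were called, against 18.2% of the 11950 tested genes (11.1% higher, 7.10% lower), and this comparison shares its libraries with those that chose the genes. Il4 and Cxcl10 reached 1 TPM in 3 libraries only through the overexpression group, which the selection had fixed as high. Their tests therefore exist because of that group, and rest on control and EGCG values of at most 1.23 TPM. Spp1 differed by 0.42 on the log2(TPM + 1) scale (95% interval 0.30 to 0.54, limma adjusted p = 0.00388), with all 3 EGCG libraries above all 3 control libraries. Cxcl10 differed by -0.28 (95% interval -0.48 to -0.09), with all 3 EGCG libraries below control, and its limma adjusted p of 0.04997 lay at the threshold. The other 4 genes were not called. Saa3 differed by 0.42 (interval 0.06 to 0.77, limma adjusted p = 0.0950) and Plat by 0.27 (0.04 to 0.50, limma adjusted p = 0.0932), both without overlap between the groups. Il4 differed by 0.28 (-0.03 to 0.59, limma adjusted p = 0.175) and Csf1 by -0.23 (-0.43 to -0.02, limma adjusted p = 0.111), both with overlap. Groups did not overlap for 4 of the 6 genes, against 34.8% of all tested genes.

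The Spp1 call held under every alternative tried, with limma adjusted p up to 0.0223. The Cxcl10 call was lost without any single library other than control replicate 3 (limma adjusted p 0.0598 to 0.157). It was also lost with no filter (0.0610), with the replicate block (0.0882), with 2 groups in the fit (0.102) and with protein-coding transcripts only (limma adjusted p = 0.181). Without control replicate 3, Il4 (limma adjusted p = 0.0264) and Saa3 (0.0351) were also called, without overexpression replicate 3 Saa3 was called (0.0497), and without EGCG replicate 2 Csf1 was called (0.0259). When TPM was rescaled to nuclear protein-coding genes, Saa3 (limma adjusted p = 0.0396) and Plat (0.0310) were also called.

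**Figure D4:**
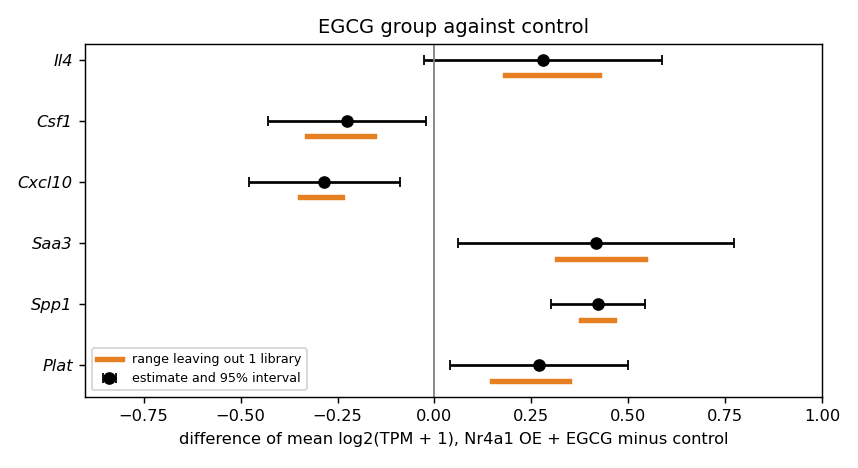
Difference of mean log2(TPM + 1) between the EGCG group and control for the 6 genes (horizontal axis). Black points and bars are the estimate and its 95% interval, orange bars are the range of estimates when each of the 9 libraries is left out in turn; Spp1 has the interval farthest from 0 (0.30 to 0.54).

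Likeness of profiles was measured as the root mean square difference of log2(TPM + 1) over the 9 libraries, each gene centred on its own mean, so that 0 means the same profile. Among the 6 genes, Csf1 and Cxcl10 were closest (0.130), followed by Saa3 and Spp1 (0.184). Il4 was farthest from the others, between 0.568 from Plat and 0.927 from Cxcl10. Across all tested protein-coding genes, Lrrc17 was the nearest to both Csf1 (0.117) and Cxcl10 (0.0755), with mean TPM of 1.04, 3.88 and 0.713 in control, overexpression and EGCG. Ins1, which encodes insulin, was next for Csf1 (0.128), and Nhs and Gcg, the glucagon precursor gene, were next for Cxcl10 (0.0881 and 0.114). Bmp1, a metalloprotease that trims procollagen, was nearest to Spp1 (0.0828; mean TPM 2.24, 8.70 and 3.41), with Wdr6 (0.0953) and the elastic fibre gene Fbln5 (0.0960) next. Wdr6 was nearest to Saa3 (0.171), followed by Spp1 and Bmp1 (0.184 each). The transthyretin gene Ttr (0.125), the potassium channel gene Kcnk16 (0.126) and Adamts17 (0.131) were nearest to Plat. Kcnk16 (0.465), the fructose transporter gene Slc2a5 (0.474) and Nms (0.517) were nearest to Il4, at larger distances than for any other member.

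The receptors, relatives and pathway genes of the 6 proteins were read from 12 lists of 225 genes, members left out. Of these, 128 were under 1 TPM in all 9 libraries, and 88 were tested. With overexpression 25 were called higher and 28 lower, 60.2% of those tested against 59.5% of all tested genes, with a median log2 difference of -0.07 against 0.10 over all genes. Between EGCG and overexpression 29 were called higher and 22 lower, 58.0% against 53.0%. Between the EGCG group and control 13 were called higher and 10 lower, 26.1% against 18.2%. Other scalings moved the split towards lower calls with overexpression. Median-ratio scaling gave 20 higher and 41 lower, quantile normalization gave 22 and 41, and nuclear protein-coding genes only gave 22 and 37. For EGCG against overexpression the same scalings gave 33 and 16, 34 and 17, and 36 and 16, and for EGCG against control 12 and 12, 11 and 13, and 17 and 8. Median-ratio scaling moved the median of all genes with overexpression from 0.0951 to -0.00201.

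Of the 14 genes of IL-4 reception and signalling, 9 were tested, and 1 rose and 3 fell with overexpression (median log2 difference -0.09). Il4ra, the chain that binds IL-4, rose from 6.41 ± 0.217 to 9.83 ± 0.312 TPM (SD, n = 3; log2 difference 0.55, limma adjusted p = 2.09e-05) and was at 7.62 ± 0.176 TPM with EGCG (-0.33, limma adjusted p = 0.000544, not called with protein-coding transcripts only, 0.179). Stat6, the transcription factor that IL-4 activates, fell from 7.24 to 4.16 TPM (-0.67, limma adjusted p = 2.21e-05) and rose with EGCG to 8.81 TPM (0.93, 5.85e-06). Socs3, an inhibitor of JAK signalling, fell from 4.07 to 1.66 TPM (-0.92, 0.000222) and rose to 4.88 TPM (1.13, 9.41e-05). Jak2 fell by 0.28 (0.00821). With EGCG, 4 of the 9 rose and 1 fell. The receptor chain and the STAT factor thus changed in opposite directions.

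Il4 lies in the type 2 cytokine cluster, and its fellow cytokines were not seen with it. Il13 and Il3 were listed at 0 in every library, Il5 was at most 0.03 TPM and Csf2 at most 0.04 TPM. Of the 12 listed genes of the locus 6 were tested, and 1 rose and 2 fell with overexpression (median log2 difference -0.20). The 3 calls became 5 without control replicate 3 and with median-ratio or quantile scaling. P4ha2, a collagen prolyl hydroxylase, fell from 9.73 ± 1.07 to 0.547 ± 0.165 TPM with overexpression (SD, n = 3; log2 difference -2.79, limma adjusted p = 1.8e-07) and rose to 7.63 ± 0.278 TPM with EGCG (2.49, 2.95e-07). Irf1 fell from 9.41 to 5.53 TPM (-0.67, 9.8e-05) and rose to 9.32 TPM (0.66, 0.000148). Sept8, the septin gene, rose from 4.16 to 5.59 TPM (0.36, 0.00833) and fell to 3.80 TPM (-0.46, 0.00297). Slc22a5 rose with EGCG from 1.83 to 2.48 TPM (0.30, 0.00562). Kif3a was at 8.56, 6.63 and 6.40 TPM and Rad50 at 9.45, 8.68 and 7.74 TPM in control, overexpression and EGCG, and neither was called in any of the 3 comparisons. Without control replicate 3, both were called lower with overexpression (Kif3a -0.50, limma adjusted p = 0.00202; Rad50 -0.20, 0.0107) and against control in the EGCG group (-0.54, 0.00564; -0.35, 0.00408), and Rad50 lower with EGCG (-0.15, 0.0290). Both were also called lower with overexpression under median-ratio scaling (limma adjusted p = 0.0340 and 0.0332) and quantile normalization (0.0390 and 0.0322).

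The CSF1 receptor gene Csf1r reached at most 0.21 TPM in any library, and Il34, the second ligand of that receptor, at most 1.18 TPM. Of the 13 genes in that list 3 were tested, and 0 rose and 1 fell with overexpression (median log2 difference -0.23). The single call became 2 without control replicate 2 and with median-ratio or quantile scaling. The sheddase gene Adam10 fell from 12.3 ± 0.745 to 6.98 ± 0.870 TPM with overexpression (SD, n = 3; -0.74, limma adjusted p = 0.000103) and rose to 12.8 ± 0.970 TPM with EGCG (0.79, 9.44e-05). Adam17, the other sheddase listed, was at 4.24, 4.19 and 4.27 TPM and was not called.

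Cxcl9 and Cxcl11, the chemokines that share CXCR3 with CXCL10, were at most 0.08 and 0.09 TPM, and Cxcr3 was at most 0.02 TPM. Of the 22 listed relatives 4 were tested, and 1 rose and 2 fell with overexpression (median log2 difference -0.51). The neutrophil chemokine gene Cxcl1 fell from 2.39 ± 0.331 to 0.710 ± 0.157 TPM with overexpression (SD, n = 3; -0.99, limma adjusted p = 4.06e-05) and Ccl27a fell from 10.7 to 5.31 TPM (-0.89, 0.000173). With EGCG, Cxcl1 was at 1.16 TPM (0.34, limma adjusted p = 0.0179, not called with no filter, with quantile normalization, or without overexpression replicate 3, 0.0659, or EGCG replicate 3, 0.0592) and Ccl27a at 7.42 TPM (0.42, 0.0124, not called with protein-coding transcripts only). Ccl25 rose with overexpression from 3.64 to 5.26 TPM (0.44, 0.0107). Its difference of -0.33 with EGCG was called (limma adjusted p = 0.0394), and was lost under the 3 other scalings (0.0713 to 0.160), with no filter (0.120) and with the replicate block (0.0748). It was also lost without any single overexpression library, EGCG replicate 2 or EGCG replicate 3 (0.0524 to 0.125).

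Of 21 interferon genes 14 were tested, of which 4 rose, 3 fell and 7 were not called with overexpression (median log2 difference 0.03). The interferon-induced protease gene Usp18 rose from 0.843 ± 0.275 to 2.01 ± 0.161 TPM and fell to 1.17 ± 0.123 TPM with EGCG (SD, n = 3; 0.72, limma adjusted p = 0.000488, then -0.47, 0.0061). The receptor gene Ifnar1 rose from 6.32 to 7.86 TPM and fell to 6.09 TPM (0.28, limma adjusted p = 0.00479, then -0.32, 0.00261). Isg15, the ubiquitin-like protein gene induced by interferon, rose from 0.483 to 1.13 TPM and fell to 0.383 TPM (0.54, limma adjusted p = 0.0071, then -0.63, 0.0038). These 3 moved as Cxcl10 did, while Irf1, an activator of interferon genes, went the opposite way.

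Among acute-phase genes, Saa1 and Saa2 reached at most 0.75 and 0.57 TPM, and these near-identical copies may share reads. Both were too low to be tested, and both had their highest mean with overexpression, as Saa3 did. In control, overexpression and EGCG the means were 0.15, 0.51 and 0.13 TPM for Saa1 and 0.15, 0.437 and 0.223 TPM for Saa2. Saa4, at most 0.08 TPM in any library, had means of 0.0533 TPM in control and 0.00333 TPM with overexpression. Low-level off-target signal, read as the sum of 1480 chemoreceptor genes, was also highest in control. Its part in the Saa4 values was not tested. Of the 18 listed genes 6 were tested, and 0 rose and 3 fell with overexpression (median log2 difference -0.24). The 3 calls became 5 without overexpression replicate 3 and with nuclear protein-coding genes only. Cebpd, a transcription factor of the acute-phase response, fell from 3.03 ± 0.351 to 0.907 ± 0.108 TPM and rose to 2.36 ± 0.191 TPM with EGCG (SD, n = 3; -1.08, limma adjusted p = 9.83e-06, then 0.82, 6.55e-05). Cebpb fell from 7.95 to 5.21 TPM (-0.52, limma adjusted p = 0.00148), and in the EGCG group, at 4.08 TPM, it was below control (-0.81, 0.00284). Il6st, the shared receptor chain of the interleukin 6 family, fell from 36.1 to 28.4 TPM and rose to 36.9 TPM (-0.34, limma adjusted p = 0.0007, then 0.36, 0.000563). Of 12 genes of SAA reception and IL-1 and Toll signalling 5 were tested, and Scarb1, Traf6 and Myd88 rose by 0.20, 0.20 and 0.32 with overexpression (limma adjusted p = 0.0127, 0.015 and 0.0182). All 3 of these calls were lost with median-ratio scaling (limma adjusted p 0.175, 0.213 and 0.0538). Without control replicate 1 or overexpression replicate 1 the calls of Traf6 (limma adjusted p = 0.0527 and 0.0551) and Myd88 (0.0539 and 0.0666) were also lost.

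The SPP1 receptor gene Cd44 was at most 0.27 TPM. Of the 10 receptor genes 3 were tested, with 1 call with overexpression, which became 2 without control replicate 3. Itgav, the integrin chain that binds osteopontin, fell from 14.2 ± 1.46 to 10.55 ± 0.440 TPM and rose to 14.05 ± 0.987 TPM with EGCG (SD, n = 3; -0.39, limma adjusted p = 0.00263, then 0.38, 0.00361). Its partners Itgb1, at 57.4, 54.0 and 49.6 TPM, and Itgb5, at 10.5, 11.3 and 12.2 TPM, were not called in any of the 3 comparisons. Without control replicate 3, Itgb1 was called lower with overexpression (-0.18, limma adjusted p = 0.0290) and in the EGCG group against control (-0.30, 0.00893), and Itgb5 was called higher in the latter (0.25, 0.0373). With other scalings Itgb1 was also called lower with overexpression (median-ratio and quantile), and Itgb5 higher with EGCG (quantile and nuclear protein-coding genes) and against control (nuclear protein-coding genes). Of the 16 SPP1 relatives and processing enzymes 3 were tested, and 1 rose and 1 fell with overexpression (median log2 difference 0.11). Fam20c, the Golgi kinase that phosphorylates osteopontin, rose from 6.57 ± 1.05 to 13.5 ± 1.41 TPM (0.95, limma adjusted p = 7.96e-05) and fell to 9.17 ± 0.554 TPM with EGCG (-0.51, 0.00342). Fn1, the fibronectin gene, fell from 4.98 to 3.06 TPM (-0.55, limma adjusted p = 0.00204) and was at 3.52 TPM with EGCG.

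Around Plat, of 19 genes of plasminogen activation 8 were tested, of which 4 rose and 2 fell with overexpression (median log2 difference 0.14). Anxa2, a cell-surface receptor for plasminogen and its activator, fell from 89.0 ± 4.19 to 40.5 ± 2.87 TPM and rose to 91.9 ± 1.93 TPM with EGCG (SD, n = 3; -1.12, limma adjusted p = 1.88e-06, then 1.17, 1.75e-06), while its partner S100a10, at 79.3, 81.9 and 80.7 TPM, was called only with quantile normalization, between EGCG and overexpression (0.0477). The plasminogen receptor gene Plgrkt rose from 8.59 to 11.6 TPM and fell to 8.32 TPM (0.39, limma adjusted p = 0.000348, then -0.43, 0.000262). Serpini1, the neuroserpin gene, an inhibitor of tissue plasminogen activator, rose from 5.12 to 7.78 TPM (0.53, 0.000552) and was at 6.63 TPM with EGCG. The substrate gene Plg and the related protease gene Plau were at most 0.14 and 0.04 TPM.

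Of 26 genes of the NF-kB pathway 13 were tested, of which 5 rose and 3 fell with overexpression (median log2 difference 0.10). The kinase gene Chuk rose from 11.2 ± 0.275 to 20.4 ± 0.497 TPM and fell to 13.3 ± 0.728 TPM with EGCG (SD, n = 3; 0.81, limma adjusted p = 3.5e-06, then -0.58, 3.07e-05). The subunit gene Nfkb1 rose from 6.01 to 8.94 TPM and fell to 5.99 TPM (0.50, limma adjusted p = 0.000405, then -0.51, 0.000515). Rela, another subunit gene, fell from 8.70 to 5.80 TPM with overexpression (-0.50, limma adjusted p = 0.0105) and was at 5.83 TPM with EGCG. Its difference between the EGCG group and control was called (-0.51, limma adjusted p = 0.0328). That call was lost with protein-coding transcripts only (-0.04, 0.770), with 2 groups in the fit and without some single libraries. The inhibitor and target gene Nfkbia rose from 6.54 to 8.39 TPM (0.32, limma adjusted p = 0.000693), a call lost with protein-coding transcripts only (0.425). Tnfaip3, another inhibitor and target, fell from 1.08 to 0.470 TPM and rose to 1.65 TPM (-0.50, limma adjusted p = 0.00198, then 0.84, 0.000122).

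Of 44 other cytokine and growth factor genes 15 were tested, and 5 rose, 8 fell and 2 were not called with overexpression, with a median log2 difference of -0.44. Mif, the macrophage migration inhibitory factor gene, was far more abundant than any of the 6 members and went the opposite way, from 730.9 ± 20.0 TPM to 138.6 ± 26.2 TPM and back to 644.7 ± 14.8 TPM with EGCG (SD, n = 3; -2.41, limma adjusted p = 1.21e-06, then 2.23, 1.86e-06). Vegfa, the vascular growth factor gene, fell from 84.8 to 33.3 TPM and rose to 82.8 TPM (-1.32, limma adjusted p = 1.13e-05, then 1.29, 1.85e-05). Il7 fell from 1.36 to 0.233 TPM and rose to 1.26 TPM (-0.93, limma adjusted p = 2.65e-05, then 0.88, 5.49e-05). Fgf1 moved as the members did, from 0.893 to 4.72 and then to 0.947 TPM (1.59, limma adjusted p = 2.52e-05, then -1.58, 3.78e-05). The others that rose were Grn, Fgf12, Manf and Gdf11, by 0.94, 0.92, 0.71 and 0.18. Over all tested genes 38.2% rose and 21.3% fell.

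**Figure D5:**
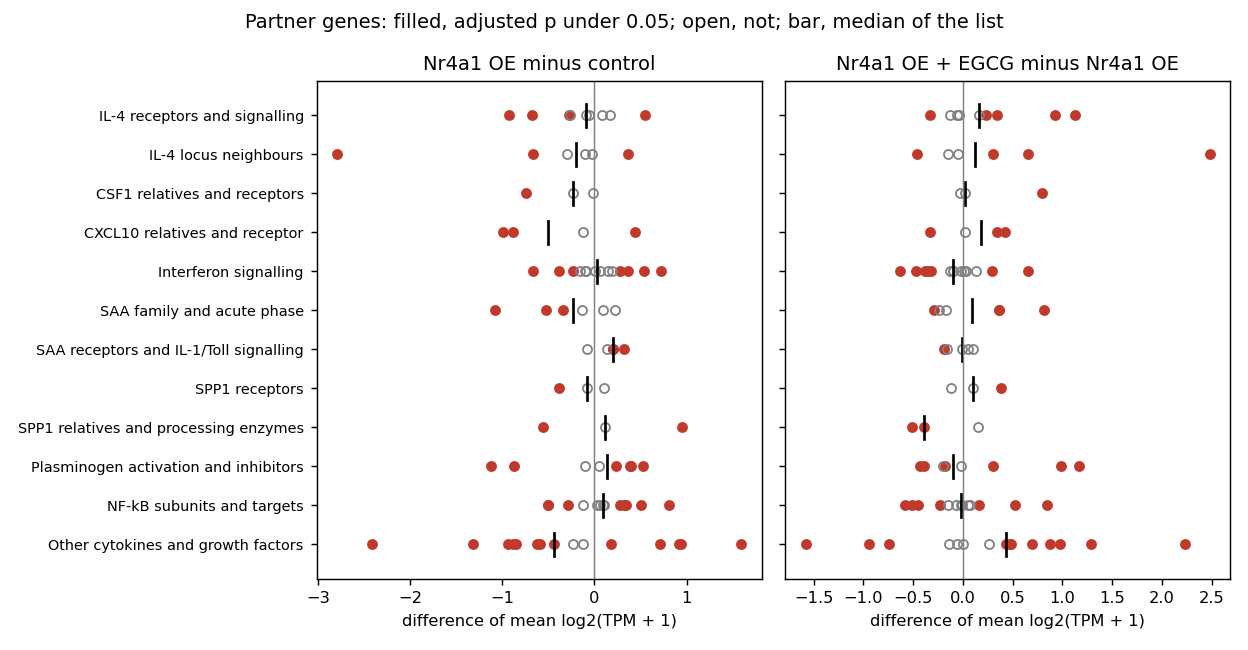
Difference of mean log2(TPM + 1) for each tested gene of the 12 partner lists, for overexpression minus control (left) and EGCG minus overexpression (right). Each circle is 1 gene, filled where limma's adjusted p was under 0.05, and the bar is the list's median; P4ha2 lies farthest out on both sides (-2.79 and 2.49).

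Markers of cells that usually make these proteins were read beside them. Of 8 T cell markers only Lck reached 1 TPM in 3 or more libraries, and the summed level was 4.03 to 7.05 TPM in control, 3.05 to 4.29 with overexpression and 3.67 to 5.09 with EGCG, with Cd3e at most 0.15 TPM. Lck was called lower with overexpression (-0.57, limma adjusted p = 0.0159) and higher with EGCG (0.48, limma adjusted p = 0.0365). Cd3g, which encodes a CD3 subunit, was too low to be tested and moved as the members did. It was at 0.22, 0.12 and 0.28 TPM in control, 0.80, 0.72 and 1.02 with overexpression, and 0.21, 0.14 and 0.27 with EGCG. Ptprc, Cd4, Gata3, Il2ra, Cd3d and Cd3e were at most 0.46 TPM, each highest in a control library. The part of these markers in the members' levels was not tested. The 8 mast cell and basophil markers summed to 0.26 to 1.26 TPM in control, 0.09 to 0.12 with overexpression and 0.08 to 0.14 with EGCG. Of 10 macrophage markers only C1qa reached 1 TPM in 3 or more libraries. The macrophage sum was 2.09 to 2.44 TPM in control, 3.68 to 4.06 with overexpression and 1.88 to 2.69 with EGCG. That sum moved with the members, C1qa alone made up most of it (2.96 to 3.45 TPM with overexpression), Adgre1 was at most 0.01 TPM, Csf1r at most 0.21 TPM and Cd68 at most 0.47 TPM, and its part in the members' levels was not tested. Duct cell markers other than Spp1 summed to 12.16 to 18.07 TPM in control, 11.01 to 12.9 with overexpression and 12.87 to 15.29 with EGCG. For 6 endothelial markers the sums were 2.66 to 2.9, 1.42 to 1.79 and 2.1 to 2.22 TPM. Of these only Plvap was tested, and it was called lower with overexpression (-0.39, limma adjusted p = 0.00172) and higher with EGCG (0.31, limma adjusted p = 0.00701). For 7 fibroblast and stellate cell markers the sums were 0.42 to 0.75, 0.08 to 0.15 and 0.19 to 0.34 TPM. The 1480 chemoreceptor genes, read as a measure of low-level off-target signal, summed to 50.06 to 107.78 TPM in control, 4.23 to 4.72 with overexpression and 7.86 to 11.8 with EGCG, far higher in control than in the other groups. Its part in the members' levels was not tested.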

How the data were processed

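Total RNA of MIN6 cells was extracted with an RNeasy kit and sequenced from stranded total RNA libraries, per the labels' protocols. The tools named in the submitters' processing notes are STAR 2.7.1a and RSEM 1.2.31, with bcl2fastq 2.20, FastQC 0.11.9 and cutadapt 2.8, and the build is GRCm39. The authors deposited TPM per Ensembl transcript. The annotation release and strand setting were not stated.

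Identifiers were joined to GENCODE M21 (GRCm38) for names. Of 142435 identifiers 97.13% matched, and the others, with 17.993% to 20.572% of each library's TPM, were left out and could include transcripts of these genes. Transcript TPM was added up for each gene. Genes that reached 1 TPM in 3 or more libraries were tested as log2(TPM + 1) with limma 3.58.1 (R 4.3.3; variance trend, all 9 libraries in 1 fit, no covariates, two-sided, Benjamini-Hochberg at 0.05 over all 11950 tested genes). The fit was tested on simulated data.

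The members and lists were chosen with earlier results of these data known. Partner genes named are those called with the smallest adjusted p, up to 4 per list and comparison, or the 3 of highest TPM where none was called. All tested genes of the IL-4 locus and, per member, the 3 protein-coding genes with the nearest profile and transcripts of at least 5% of the gene were also named. Other genes named, such as receptors at low TPM, were chosen after their values were seen, and some genes the rule names are not reported here. Alternatives were pseudocounts 0.1 and 0.5, no filter, 3 other scalings, protein-coding transcripts only, no variance trend, a replicate block, 2 groups in the fit and leaving out each library. Promoter windows came from RefSeq tables of GRCm38.p6.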

Additional observations from a re-analysis of the deposited data

How the results depend on the processing

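The direction of the 6 members between overexpression and control and between EGCG and overexpression was the same under every alternative tried. For Il4 the log2 rise ranged from 3.22 to 4.51, and for Cxcl10 from 1.12 to 1.71. The count of members called between the EGCG group and control was 2, and became 1 with no filter, with protein-coding transcripts only, with the replicate block and with 2 groups in the fit, 4 with nuclear protein-coding genes only, and 1 to 4 when 1 library was left out. For partner genes, no filter gave 86 calls in place of 53 with overexpression and 37 in place of 23 between the EGCG group and control. In the last comparison the replicate block gave 11 and 2 groups in the fit gave 5. Leaving out 1 library gave 50 to 57, 44 to 52 and 6 to 31 calls for overexpression against control, EGCG against overexpression and the EGCG group against control. Over all genes, no filter gave 12395 calls in place of 7106 with overexpression and 4775 in place of 2172 between the EGCG group and control, where the replicate block gave 1221 and 2 groups in the fit gave 895. The ranges without 1 library were 6286 to 7263, 5411 to 6787 and 735 to 3239. No filter tests more genes and 2 groups in the fit uses fewer libraries. Most calls added by no filter were lower calls. With overexpression they were 4597 higher and 7798 lower, in place of 4561 and 2545. Between the EGCG group and control they were 1212 higher and 3563 lower, in place of 1323 and 849. The cause of this direction and of the other shifts was not tested. The difference between the EGCG group and control changed sign in some settings for 3 genes in which it was not called. For Adam17 it was -0.003596 with median-ratio scaling, -0.02371 with quantile normalization, -0.01553 with protein-coding transcripts only and -0.007582 to 0.03747 without 1 library. For Itgav it was 0.05645 with nuclear protein-coding genes only and -0.09074 to 0.04528 without 1 library, and for Adam10 -0.004991 to 0.08213 without 1 library.

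Same-numbered libraries were not treated as pairs. Their deviations from the group means had correlations of -0.021 to 0.214, and those of differently numbered libraries -0.238 to 0.121. The same-numbered range lay higher and the ranges overlapped, so pairing by number was neither shown nor excluded. The replicate block is given only as a variant.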

Other observations

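The genes lying next to the 6 members were read as values, with 2 protein-coding genes taken on each side by position in GRCm38 after the members' values had been seen. Of these 24 neighbours 14 were tested. With overexpression 4 were called higher and 2 lower, and between EGCG and overexpression 2 were called higher and 3 lower (limma). Called higher with overexpression and then lower with EGCG were 3 of the 14, against 28.5% of all tested genes. These were Sept8, at 2 genes from Il4, Ahcyl1, next to Csf1 (32.9, 49.2 and 31.5 TPM in control, overexpression and EGCG), and Nup54, next to Cxcl10 (19.0, 26.2 and 20.1 TPM). Scarb2, the next gene after Nup54, was at 28.5, 36.5 and 34.4 TPM, higher in both transfected groups than in control. Polb, the DNA polymerase beta gene near Plat, was at 16.0, 12.0 and 12.4 TPM, lower in both. Ap3m2, Ikbkb and Kat6a around Plat and Pkd2 next to Spp1 were not called in any of the 3 comparisons under any alternative run. Ibsp and Mepe, bone matrix genes of the same family as Spp1 that lie beside it, stayed at means of at most 0.0533 and 0.05 TPM. Dmp1, a listed SPP1 relative also on chromosome 5, was too low to be tested but rose and fell as Spp1 did. It was at 0.14, 0.11 and 0.14 TPM in control, 0.33, 0.36 and 0.31 with overexpression, and 0.09, 0.09 and 0.13 with EGCG. Ibsp, Mepe and the listed Dspp, at most 0.08 TPM in any library, had their highest means in control. The sum of the chemoreceptor genes was also highest there, and the part of such off-target signal in these values was not tested.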
